A study of Homo sapiens with 6 samples.

Results

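MHC class I antigen presentation was followed through 9 genes, HLA-B, HLA-C, HLA-E, B2M, TAP1, TAP2, TAPBP, PSMB8 and PSMB9, out of the 24462 gene symbols in the count tables. They were chosen by function, with earlier results of these data known, and matched by symbol in every library. All 9 were found, and the levels of each are given here as the sum of the rows that carry its symbol.

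The libraries came from A549, an established human lung carcinoma epithelial line, and BEAS-2B, an established human bronchial epithelial line, both wild type by their labels. Each line was left untreated or received TGF-β1 at 1 or 5 ng/mL over 48 h, which gives 6 conditions with 1 library each. The treated cells were kept in medium with reduced serum, and the labels do not say which medium the untreated cells received. With 1 library per condition the variation among cultures is not known, and no test between conditions was run. A model over both lines, which would take the difference between the lines as error, was not run either.

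A class I molecule is a heavy chain encoded by an HLA gene, paired with the light chain β2-microglobulin and a short peptide. The peptide is cut from cytosolic proteins by the proteasome, carried into the endoplasmic reticulum by the TAP transporter, and loaded with the help of tapasin. The assembled complex is displayed on the cell surface, where cytotoxic T cells and natural killer cells read it. Nearly every nucleated cell makes class I molecules at some level, and interferon-γ is the classical inducer of the whole set, through interferon-response elements and the transactivator NLRC5.

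The letters of 4 elements known from class I promoters were looked up in RefSeq promoter windows (GRCh38.p14), which run from 250 bases before to 50 bases after each transcription start. The 8 genes with an entry were HLA-B, HLA-C, B2M, TAP1, TAP2, TAPBP, PSMB8 and PSMB9, in 10 windows, and HLA-E had none. The core of the interferon-stimulated response element (ISRE, read as GAANNGAAA or GAAANNGAA on either strand) was present in the windows of 7 of the 8 genes, all but PSMB9, or 7 of the 10 windows, and in 14.5% of all 35116 windows. The cyclic AMP response element core TGACG, part of the module that NLRC5 and the RFX factors occupy, was present in 6 of the 8 genes (6 of the 10 windows) and in 24.6% of all windows. A CCAAT box, the NF-Y element of the same module, was present in 5 of the 8 genes (5 of the 10 windows) and in 34.6% of all windows, and the matches of TAP1 and PSMB9 are the same bases, in the stretch where their windows overlap. The κB core, read as GGGATTCC, GGGATTTCC or GGGACTTTC, was present in 4 of the 8 genes (HLA-B, B2M, TAP1 and TAPBP), or 4 of the 10 windows, and in 1.89% of all windows. HLA-B, HLA-C, B2M and TAP2 held an ISRE core and a TGACG in the same window, which makes 4 of the 10 windows beside 2.88% of all windows. The elements and their letters were picked because they are known from class I promoters. A share above that of all windows can follow from this choice and is no test of enrichment.

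The stretches around the ISRE cores are printed below because they show the element that the genes share, with each matched motif in capitals and the rest in lower case, 5′ to 3′ on the strand of the gene. They lie at chr6:31357242-31357361 (minus strand) for HLA-B, chr6:31272138-31272249 (minus) for HLA-C, chr15:44711367-44711478 (plus) for B2M, chr6:32853762-32853843 (minus) for TAP1, chr6:32838764-32838808 (minus) for TAP2, chr6:33314079-33314139 (minus) for TAPBP and chr6:32844031-32844056 (minus) for PSMB8.
HLA-B: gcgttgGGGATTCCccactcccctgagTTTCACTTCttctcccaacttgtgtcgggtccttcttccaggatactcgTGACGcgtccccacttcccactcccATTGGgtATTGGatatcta
HLA-C: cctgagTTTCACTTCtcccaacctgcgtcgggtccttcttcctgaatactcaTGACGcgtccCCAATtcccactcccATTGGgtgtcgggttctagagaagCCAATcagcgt
B2M: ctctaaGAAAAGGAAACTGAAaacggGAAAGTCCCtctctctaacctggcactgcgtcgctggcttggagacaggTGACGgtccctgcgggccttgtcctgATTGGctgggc
TAP1: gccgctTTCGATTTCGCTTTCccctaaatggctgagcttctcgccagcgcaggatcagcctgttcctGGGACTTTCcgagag
TAP2: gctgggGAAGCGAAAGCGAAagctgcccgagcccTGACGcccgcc
TAPBP: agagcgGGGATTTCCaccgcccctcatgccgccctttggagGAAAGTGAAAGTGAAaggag
PSMB8: gtggctTTCGCTTTCACTTCctcctc

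HLA-B and HLA-C carried TTTCACTTC, the reverse complement of the ISRE core, upstream of the TGACG. The core in the B2M window lay on the other strand, as a run of overlapping matches next to a κB core. TAP1 and PSMB9 are transcribed away from each other from start sites 488 bases apart, so that their windows overlap by 13 bases, and the ISRE core of this region lay in the TAP1 window. In PSMB8 the core spanned the start site itself, from position -3 to 11. A match describes the letters in the window and is neither a binding site nor a cause of the changes described next.

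The libraries held 4120624 to 7841350 counts, and a count of 0 allows a level of up to 0.383 to 0.728 CPM (counts relative to the library total), at 3 counts. KRT8 and KRT18, keratins of simple epithelium, were counted in both lines, while BEAS-2B cells had at most 2 counts of the epithelial adhesion gene CDH1 and 0 of EPCAM in each library. In A549 CDH1 went from 640 counts to 30 at 1 ng/mL and 8 at 5 ng/mL. Of 7 leukocyte markers, CD3E and NKG7 were at 0 in all 6 libraries and 0 of 7 reached the minimum level used for calls. The summed leukocyte markers, mainly CD14 and CD68, stood at 27.3, 13.1 and 12.0 CPM in A549 and 11.3, 4.13 and 1.46 CPM in BEAS-2B at 0, 1 and 5 ng/mL, and the epithelial markers at 5172, 2076 and 1890 CPM and at 432, 201 and 243 CPM. Both sums were lower after treatment, like the genes below, and their part in the results was not tested. In such bulk libraries fewer cells of a type and less RNA per cell cannot be told apart.

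Class I presentation genes were lower after TGF-β1 in BEAS-2B throughout, and in A549 for some members only. Levels are counts scaled to a common library size, and each ratio is the scaled count of a treated library over that of the untreated library of the same line, with its exact 95% interval, which covers counting error only. A gene was called when its fold change, computed with 1 added to both scaled counts, was at least 2 and its log2 level was at least 7 in 1 or both of the libraries compared. In BEAS-2B cells at 5 ng/mL, 5 of the 9 genes were called lower and 0 higher, beside 11.6% of all genes called lower and 7.32% called higher. At 1 ng/mL it was 3 lower and 0 higher, beside 9.13% and 5.66%. All 9 ratios lay below 1 with their intervals at both doses. The median log2 fold change of the 9 genes was -0.82 at 1 ng/mL and -1.09 at 5 ng/mL, where the median of all genes that reached the level was 0.01 and 0.03.

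In A549 cells the picture was mixed. At 5 ng/mL, 3 genes were called lower and 0 higher among the 7 that reached the level, beside 17.1% and 16.1% of all genes. At 1 ng/mL, 2 were called lower and 1 higher, beside 12.6% and 11.0%, and with total counts as the scaling, or with the trend over GC content removed, that 1 higher call, TAPBP, was lost. The median log2 fold change of the 9 genes in A549 was 0.03 at 1 ng/mL and -0.51 at 5 ng/mL, where all genes that reached the level had medians of 0.09 and 0.11. The median of the 9 also takes in genes below the level, and at 5 ng/mL it is the value of TAP1, which was below it. The summed counts of the 9 genes were also taken relative to the library total, without the scaling used for the ratios. They stood at 887, 839 and 623 CPM in A549 and 3650, 2026 and 1971 CPM in BEAS-2B at 0, 1 and 5 ng/mL. B2M alone made up 435, 396 and 267 CPM of this in A549 and 1459, 897 and 950 CPM in BEAS-2B. From 0 to 1 ng/mL in A549 the scaled count of B2M went from 2089 to 2133, so that the direction of this step depends on the scaling.

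**Figure D1:**
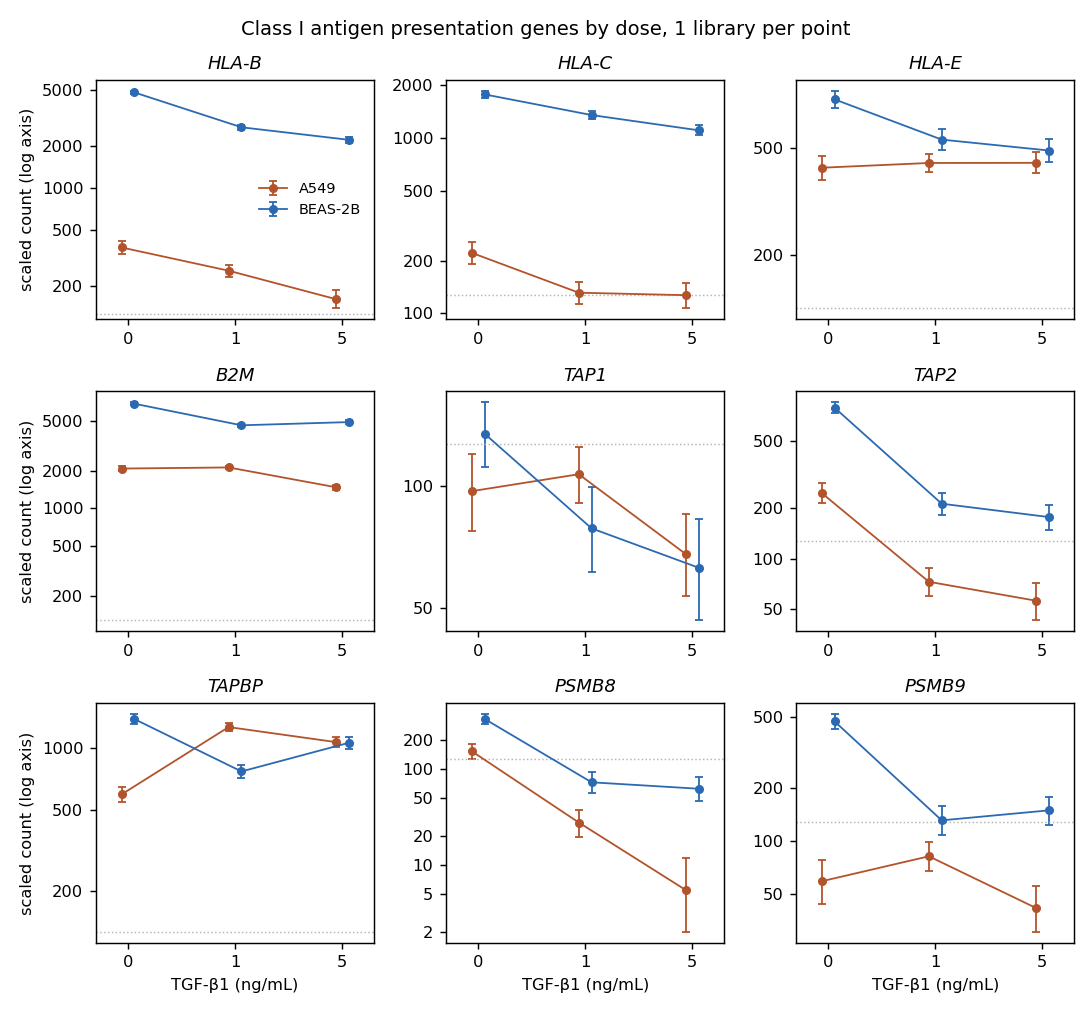
Scaled counts (log axis, a separate axis for each gene) of the 9 genes at 0, 1 and 5 ng/mL TGF-β1 in A549 and BEAS-2B. Points are single libraries, bars are 95% Poisson counting intervals, and the dotted line marks the minimum level of 127 scaled counts. PSMB8 and TAP2 lie lower at both doses in both lines, and TAPBP moves in opposite directions in the lines.

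HLA-B encodes a classical heavy chain that presents peptides to cytotoxic T cells. Its scaled count was 378, 258 and 162 in A549 and 4766, 2696 and 2198 in BEAS-2B at 0, 1 and 5 ng/mL. Both lines were lower at each higher dose, and the counting intervals of the 3 libraries of a line did not overlap. The ratio at 5 ng/mL was 0.430 (0.356 to 0.518) in A549 and 0.461 (0.436 to 0.488) in BEAS-2B, and HLA-B was called lower in both. At 1 ng/mL the ratios of HLA-B were 0.684 (0.588 to 0.796) and 0.566 (0.538 to 0.595), short of the 2-fold limit.

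HLA-C, a classical heavy chain that is also a ligand of killer cell immunoglobulin-like receptors, had scaled counts of 221, 131 and 127 in A549 and 1765, 1346 and 1102 in BEAS-2B. All treated libraries lay below the untreated one of their line. The ratio at 5 ng/mL was 0.574 (0.458 to 0.718) in A549 and 0.625 (0.574 to 0.679) in BEAS-2B, which stayed within 2-fold. HLA-C was therefore not called in any treatment comparison. With the GC trend removed it was called lower in A549 at both doses, with log2 fold changes of -1.40 at 1 ng/mL and -1.53 at 5 ng/mL. With total counts as the scaling it was called lower in A549 at 5 ng/mL.

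HLA-E is a nonclassical heavy chain that presents leader peptides of other class I molecules to natural killer cell receptors. It had scaled counts of 423, 440 and 441 in A549 cells, which lay within each other's counting intervals. Its ratio in A549 cells was 1.04 at both doses (0.914 to 1.19 and 0.908 to 1.20), and the sign of its log2 fold change at 5 ng/mL depended on the alternative, from -0.14 with total counts and -0.29 with the GC trend removed to 0.09 with upper quartile factors. In BEAS-2B cells the scaled counts of HLA-E were 758, 538 and 490, with ratios of 0.709 (0.630 to 0.798) and 0.646 (0.569 to 0.733). The log2 ratio of BEAS-2B minus that of A549 was -0.69 (-0.96 to -0.42) at 5 ng/mL, a difference larger than counting error.

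The balance among HLA-B, HLA-C and HLA-E was read as shares of counts within a library, which need no scaling. HLA-E took 41.4% of the counts of HLA-B, HLA-C and HLA-E together in untreated A549 cells (exact binomial 95% interval 38.1 to 44.7). That share of HLA-E was 53.1% (50.2 to 55.9) at 1 ng/mL and 60.4% (56.9 to 63.8) at 5 ng/mL. In BEAS-2B the HLA-E share was 10.4% (9.68 to 11.2), 11.7% (10.8 to 12.8) and 12.9% (11.7 to 14.2) at 0, 1 and 5 ng/mL. The HLA-E share was thus larger at 5 ng/mL than in untreated cells in both lines, by more than counting error. HLA-B took 73.0% (71.8 to 74.1) of the counts of HLA-B and HLA-C in untreated BEAS-2B cells and 66.6% (64.8 to 68.4) at 5 ng/mL. In A549 cells the HLA-B share of this pair was 63.1% (58.7 to 67.2), 66.3% (62.3 to 70.2) and 56.1% (50.5 to 61.6), with overlapping intervals between the untreated library and each dose. The HLA genes are related in sequence, and their alleles differ between people and lines. How reads that match more than 1 of them were counted is not given in the sources used here. The split between them is therefore uncertain.

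B2M encodes the light chain that every class I heavy chain needs to reach the surface. Its scaled count was 2089, 2133 and 1481 in A549 and 6922, 4647 and 4930 in BEAS-2B. In A549 cells the lower level was seen at 5 ng/mL alone, with a ratio of 0.709 (0.662 to 0.758), while the ratio at 1 ng/mL was 1.02 (0.963 to 1.08) and the sign of its log2 fold change depended on the alternative, from -0.14 with total counts to 0.20 with the GC trend removed. BEAS-2B cells were lower at both doses, with ratios of 0.671 (0.645 to 0.698) and 0.712 (0.684 to 0.741). B2M stayed within 2-fold in every treatment comparison and was not called there. The counts of HLA-B and HLA-C per B2M count in A549 cells were 0.287 (0.260 to 0.316), 0.183 (0.167 to 0.1998) and 0.195 (0.173 to 0.221) at 0, 1 and 5 ng/mL. For the BEAS-2B line this ratio of heavy chains to light chain was 0.943 (0.910 to 0.978), 0.870 (0.831 to 0.910) and 0.669 (0.637 to 0.704). In both lines the 2 heavy chains were lower relative to their light chain at 5 ng/mL than in untreated cells, by more than counting error.

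Peptides reach the heavy chains through the transporter formed by TAP1 and TAP2. TAP2 was among the clearest changes of the set. Its scaled count was 244, 72.8 and 56.3 in A549 and 784, 212 and 176 in BEAS-2B. The treated libraries lay far below the untreated ones, and most of the drop was present at 1 ng/mL. The ratio was 0.298 (0.234 to 0.378) and 0.230 (0.170 to 0.307) in A549 and 0.270 (0.228 to 0.317) and 0.225 (0.186 to 0.270) in BEAS-2B at 1 and 5 ng/mL, and TAP2 was called lower in all 4 comparisons. Its calls in A549 were lost with log2(CPM + 1) as the level and with a level of 7 required in both libraries. The log2 ratios of TAP2 differed between the lines by -0.03 (-0.52 to 0.45) at 5 ng/mL and by -0.14 (-0.55 to 0.27) at 1 ng/mL, within counting error.

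TAP1, the other subunit of the transporter, had scaled counts of 97.3, 107 and 68.0 in A549 and 135, 78.8 and 63.0 in BEAS-2B. It was called lower in BEAS-2B cells at 5 ng/mL, where its ratio was 0.467 (0.329 to 0.654), after 0.584 (0.428 to 0.790) at 1 ng/mL, and this call was lost with thinned libraries, with TMM within each cell line and with either stricter level. TAP1 did not reach the minimum level in A549 cells, where the ratios were 1.10 (0.839 to 1.45) and 0.699 (0.505 to 0.966) and the log2 fold change at 1 ng/mL ranged from -0.17 to 0.14 over the alternatives. The subunits thus differed in A549 cells at 1 ng/mL, where the interval of TAP2 lay wholly below that of TAP1.

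TAPBP encodes tapasin, the chaperone that holds empty class I molecules at the transporter. Its scaled count was 594, 1265 and 1069 in A549 and 1383, 769 and 1059 in BEAS-2B. The untreated library was the lowest of the 3 in A549 and the highest of the 3 in BEAS-2B, and at 5 ng/mL both lines stood at about the same level. The ratio in A549 cells was 2.13 (1.93 to 2.35) at 1 ng/mL, called higher, and 1.80 (1.62 to 1.998) at 5 ng/mL, not called. In BEAS-2B cells the ratio of TAPBP was 0.556 (0.505 to 0.611) and 0.766 (0.701 to 0.837). The log2 ratio of BEAS-2B minus that of A549 was -1.94 (-2.13 to -1.74) at 1 ng/mL and -1.23 (-1.43 to -1.04) at 5 ng/mL. TAP2 took 29.1% (25.9 to 32.6) of the counts of TAP2 and TAPBP together in untreated A549, 5.44% (4.48 to 6.55) at 1 ng/mL and 5.00% (3.85 to 6.36) at 5 ng/mL. In BEAS-2B cells the same share was 36.2% (34.0 to 38.4), 21.6% (18.9 to 24.5) and 14.3% (12.1 to 16.6), so that the TAP2 share was lower at both doses in both lines by more than counting error. TAP1 took 14.1% (11.4 to 17.1), 7.81% (6.67 to 9.08) and 5.99% (4.74 to 7.45) of the counts of TAP1 and TAPBP in A549 and 8.89% (7.43 to 10.5), 9.30% (7.32 to 11.6) and 5.61% (4.19 to 7.33) in BEAS-2B, where at 1 ng/mL it was not lower.

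**Figure D2:**
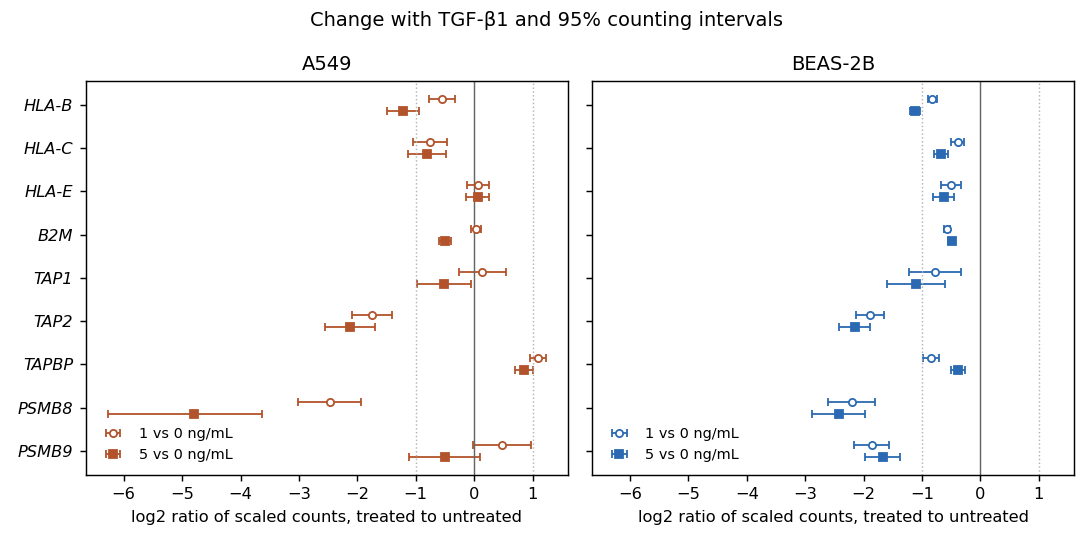
Log2 ratio of scaled counts at 1 ng/mL (open circles) and 5 ng/mL (filled squares) to the untreated library, in A549 (left) and BEAS-2B (right), with 95% counting intervals from 1 library per condition. Dotted lines mark the 2-fold limit. In BEAS-2B all 9 genes lie left of 0, and in A549 TAPBP lies right of it at both doses.

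PSMB8 encodes the immunoproteasome subunit that takes the place of PSMB5 in the proteolytic core and favours peptides that fit class I molecules. Its ratio was the lowest of the 9 genes in all 4 comparisons with untreated cells. Its interval lay below those of the other 8 at 5 ng/mL in A549 alone and overlapped that of TAP2 in the other 3. In BEAS-2B it also overlapped that of PSMB9 at both doses. The counts were 131, 40 and 6 in A549 and 295, 64 and 49 in BEAS-2B, or 152, 27.5 and 5.44 and 329, 72.0 and 61.7 when scaled. Every treated library lay well below the untreated one, and in A549 cells the higher dose lay below the lower one as well. The ratio in A549 was 0.181 (0.124 to 0.260) at 1 ng/mL and 0.0359 (0.0129 to 0.0802) at 5 ng/mL, the latter from 6 counts. In BEAS-2B cells the ratio of PSMB8 was 0.219 (0.164 to 0.288) and 0.188 (0.136 to 0.254), and PSMB8 was called lower in all 4 comparisons. The untreated A549 level is close to the minimum of 127 scaled counts, and the A549 calls were lost with thinned libraries. All 4 calls were lost with log2(CPM + 1) as the level and with a level of 7 required in both libraries. At 5 ng/mL the log2 ratio was higher in BEAS-2B than in A549 by 2.39 (1.13 to 3.65), whereas at 1 ng/mL it differed by 0.27 (-0.37 to 0.92).

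PSMB9 is the immunoproteasome subunit that takes the place of PSMB6. Its scaled count was 473, 131 and 149 in BEAS-2B cells, with ratios of 0.276 (0.223 to 0.340) and 0.314 (0.254 to 0.386), and it was called lower at both doses. In A549 cells PSMB9 stayed below the minimum level, with scaled counts of 59.1, 81.8 and 41.7 and ratios of 1.38 (0.989 to 1.96) and 0.706 (0.464 to 1.07) whose intervals include 1. The difference between the lines in log2 ratio was -2.33 (-2.88 to -1.77) at 1 ng/mL and -1.17 (-1.81 to -0.52) at 5 ng/mL. PSMB8 and PSMB9 were therefore both low in treated BEAS-2B, while in A549 at 1 ng/mL the interval of PSMB8 lay wholly below that of PSMB9.

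Set against the constitutive subunit it replaces, each immunoproteasome subunit gave a share that needs no scaling. PSMB8 took 12.8% (10.8 to 15.0) of the counts of PSMB8 and PSMB5 in untreated A549, 2.001% (1.43 to 2.71) at 1 ng/mL and 0.425% (0.156 to 0.923) at 5 ng/mL. In BEAS-2B cells the PSMB8 share was 25.8% (23.3 to 28.4), 6.71% (5.20 to 8.49) and 5.56% (4.14 to 7.29). PSMB9 took 18.6% (17.0 to 20.3), 4.84% (4.02 to 5.78) and 4.73% (3.93 to 5.64) of PSMB9 and PSMB6 in BEAS-2B cells. In A549 cells the PSMB9 share was 2.33% (1.74 to 3.05), 1.78% (1.48 to 2.13) and 0.827% (0.606 to 1.10), and the PSMB6 count in its denominator was itself higher after treatment, as given below. PSMB10, the partner subunit that replaces PSMB7, took 8.94% (7.42 to 10.7), 7.55% (6.59 to 8.60) and 7.14% (6.11 to 8.28) of PSMB10 and PSMB7 in A549 and 9.54% (8.15 to 11.1), 11.0% (9.62 to 12.6) and 6.13% (4.88 to 7.58) in BEAS-2B. The PSMB10 share was lower than in untreated cells by more than counting error at 5 ng/mL in BEAS-2B, while its other 3 intervals overlapped those of untreated cells.

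**Figure D3:**
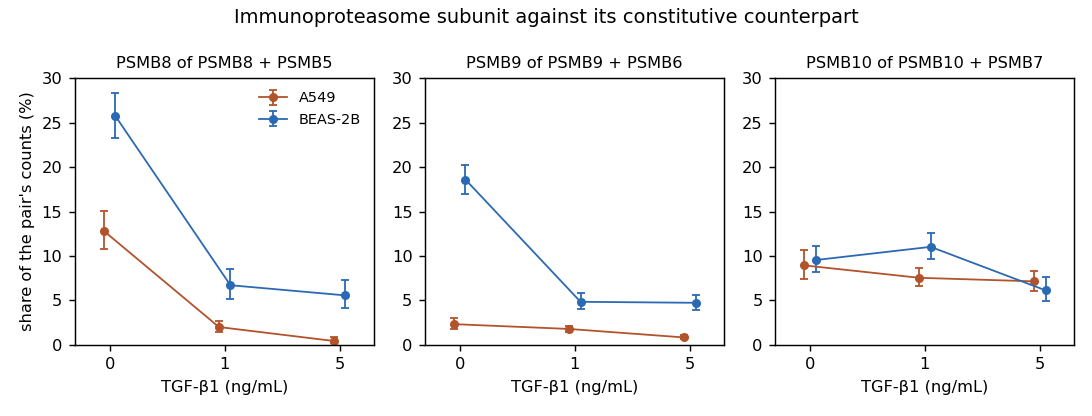
Share of each immunoproteasome subunit in the counts of the subunit and its constitutive counterpart (linear axis from 0), by TGF-β1 dose in ng/mL, for A549 and BEAS-2B. Bars are exact binomial 95% intervals of single libraries. The PSMB8 share goes from 12.8% to 0.425% in A549 and from 25.8% to 5.56% in BEAS-2B, and the PSMB10 share runs from 8.94% to 7.14% and from 9.54% to 6.13%.

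PSMB8, TAP1 and PSMB9 lie side by side on chromosome 6 with the antisense RNA PSMB8-AS1, which the GENCODE annotation places over all 3 genes. The 3′ end of TAP1 lies within both PSMB8-AS1 and PSMB9. PSMB8-AS1, picked after its values were seen, had 107, 75 and 28 counts in A549 and 153, 34 and 30 counts in BEAS-2B. Its ratio at 5 ng/mL was 0.205 (0.130 to 0.313) in A549, below the minimum level, and 0.221 (0.144 to 0.329) in BEAS-2B, called lower. The strand setting of the counting is not given in the sources used here, so that reads of PSMB8-AS1, PSMB8, TAP1 and PSMB9 may have been shared. The annotation also places a protein-coding model, AL669918.1, over the 3′ end of TAP2 on the same strand and HLA-C over the 3′ end of a long HLA-B model, whereas HLA-E, B2M and TAPBP overlap no other gene. Of the 58 rows that carry 1 of the 9 symbols, 49 were at 0 in every library, and each gene took its counts from 1 row.

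Between 1 and 5 ng/mL, 0 of the 9 genes were called in either direction in BEAS-2B cells, where 7 reached the level. Over all genes, 0.491% were called higher and 0.412% lower. The ratios of 5 to 1 ng/mL in BEAS-2B cells lay between 0.7996 (0.545 to 1.17) for TAP1, below the level, and 1.38 (1.24 to 1.53) for TAPBP. In A549 cells where 5 genes reached the level, 0 of the 9 were called as well, beside 1.61% higher and 1.79% lower, but 6 of the 9 intervals lay below 1. Among them were HLA-B with 0.629 (0.523 to 0.753), B2M with 0.694 (0.653 to 0.737) and PSMB8 with 0.198 (0.0686 to 0.470), the last below the minimum level in both libraries.

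Before treatment BEAS-2B had more of every one of the 9 transcripts than A549. In the comparison of the untreated libraries, 7 of 9 were called higher in BEAS-2B cells and 0 lower, beside 18.9% of all genes higher and 18.1% lower. The ratio of BEAS-2B to A549 was 12.6 (11.3 to 14.2) for HLA-B, 8.004 (5.98 to 10.9) for PSMB9, 7.97 (6.86 to 9.315) for HLA-C, 3.31 (3.14 to 3.49) for B2M and 3.21 (2.75 to 3.76) for TAP2. It was 2.33 (2.10 to 2.58) for TAPBP and 2.17 (1.76 to 2.68) for PSMB8, while HLA-E with 1.79 (1.58 to 2.04) and TAP1 with 1.39 (1.04 to 1.85) were not called. For HLA-B, HLA-C, HLA-E, B2M and PSMB9, all 3 BEAS-2B libraries lay above all 3 A549 libraries, 5 of 9 genes beside 22.5% of all genes that reached the level, but for HLA-E the lowest BEAS-2B value of 490 and the highest A549 value of 441 have overlapping counting intervals. The alleles of each line can match the reference unequally, and the part of this in the HLA ratios between lines was not tested.

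With each line centred on its own mean log2 level, the pattern of a gene over the 6 libraries was compared with the mean of the other 8 genes as a description. Pearson's r was 0.97 for HLA-B, 0.93 for B2M, 0.92 for TAP2 and 0.90 for TAP1, between 0.82 and 0.83 for HLA-C, PSMB8 and PSMB9, 0.70 for HLA-E and -0.05 for TAPBP. TAPBP thus stood apart from the group in this measure. Among 4194 other genes at the minimum level in all libraries, the 5 with the pattern most like the mean of the 9 were MSMO1, HACD3, AIMP2, CAPN12 and NPEPPS, with r of 0.998 to 0.999 over 6 libraries that share 2 untreated ones. MSMO1, an enzyme of cholesterol synthesis, had log2 fold changes of -0.93 in A549 and -1.07 in BEAS-2B at 5 ng/mL, and NPEPPS, a cytosolic aminopeptidase that is also on the peptide-trimming list, had -0.66 and -0.80. The same values were -0.91 and -1.07 for HACD3, -0.60 and -0.64 for AIMP2, and -3.68 and -4.62 for CAPN12.

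The other genes of the pathway were described by lists in the same order of roles. At 5 ng/mL the median log2 fold change over a whole list was 0.74 in A549 and 0.23 in BEAS-2B for other peptide loading, -0.53 and -0.31 for peptide trimming, 0.37 and 0.12 for other immunoproteasome genes and 0.54 and 0.14 for the constitutive subunits. It was -0.30 and -0.32 for class I regulators, -0.73 and -0.94 for interferon signalling, and 0.34 and -0.05 for NKG2D ligands, beside 0.11 and 0.03 for all genes that reached the level. The list medians also take in genes below that level, some with few counts, so that the 2 kinds of median are not fully alike. HLA-F and HLA-G, 2 further nonclassical heavy chains, stayed below the minimum level in every comparison. HLA-F had 32, 4 and 7 counts in A549 and 34, 5 and 4 counts in BEAS-2B. Its ratio at 5 ng/mL was 0.171 (0.0638 to 0.395) in A549 and 0.133 (0.0342 to 0.373) in BEAS-2B, from few counts. HLA-G had at most 1 count in each library. Among 4 other proteins that pair with B2M, HFE, MR1, FCGRT and CD1D, 0 were called in any treatment comparison. Only FCGRT reached the level, so that HFE, MR1 and CD1D could not be called.

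Of the 4 other genes of peptide loading, 3 reached the level at 5 ng/mL and only PDIA3 was called, higher in BEAS-2B with ratios of 2.02 (1.85 to 2.22) at 1 ng/mL and 2.84 (2.61 to 3.11) at 5 ng/mL. PDIA3 encodes the disulfide isomerase that works with tapasin, and it is also a general chaperone of the endoplasmic reticulum. Of 6 peptide-trimming enzymes, ERAP1, the aminopeptidase that cuts peptides to length in the endoplasmic reticulum, was called lower in all 4 comparisons. Its counts were 301, 153 and 70 in A549 and 334, 165 and 78 in BEAS-2B, with ratios at 5 ng/mL of 0.182 (0.138 to 0.237) and 0.264 (0.203 to 0.338). ERAP2, its partner enzyme, was called lower in BEAS-2B (0.454, 0.350 to 0.584, at 5 ng/mL), and BLMH, a cytosolic protease, was called higher in A549 (2.56, 2.28 to 2.87, at 5 ng/mL). At 5 ng/mL 4 genes of the trimming list reached the level in A549, with 1 called lower and 1 higher. In BEAS-2B cells 5 reached it, with 2 lower and 0 higher. Over all genes at 5 ng/mL, 17.1% were called lower and 16.1% higher in A549, and 11.6% and 7.32% in BEAS-2B. At 1 ng/mL these shares were 12.6% and 11.0%, and 9.13% and 5.66%.

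Proteasome genes other than PSMB8 and PSMB9 were mostly not called. Of 5 further genes tied to the immunoproteasome, PSME1, a subunit of the proteasome activator, was called lower in BEAS-2B cells at both doses, with 846, 407 and 352 counts and a ratio of 0.470 (0.414 to 0.533) at 5 ng/mL. PSME1 was the 1 gene called of the 5, beside 9.13% and 11.6% of all genes called lower there at 1 and 5 ng/mL. PSMB10 was not called against untreated cells, with ratios at 5 ng/mL of 1.14 (0.886 to 1.46) in A549 and 0.583 (0.439 to 0.770) in BEAS-2B, but between 1 and 5 ng/mL it was called lower in BEAS-2B, with a ratio of 0.447 (0.340 to 0.583). Over all genes, 0.412% were called lower in that comparison. Of the 3 constitutive counterparts, PSMB6 was called higher in A549 cells at 5 ng/mL, with a ratio of 2.02 (1.92 to 2.12). That is 1 of 3 genes at the level, beside 16.1% of all genes called higher there. PSMB5 had ratios at 5 ng/mL of 1.23 (1.13 to 1.34) and 1.11 (1.00 to 1.22), and PSMB7 had 1.45 (1.35 to 1.56) and 0.942 (0.872 to 1.02), in A549 and BEAS-2B.

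**Figure D4:**
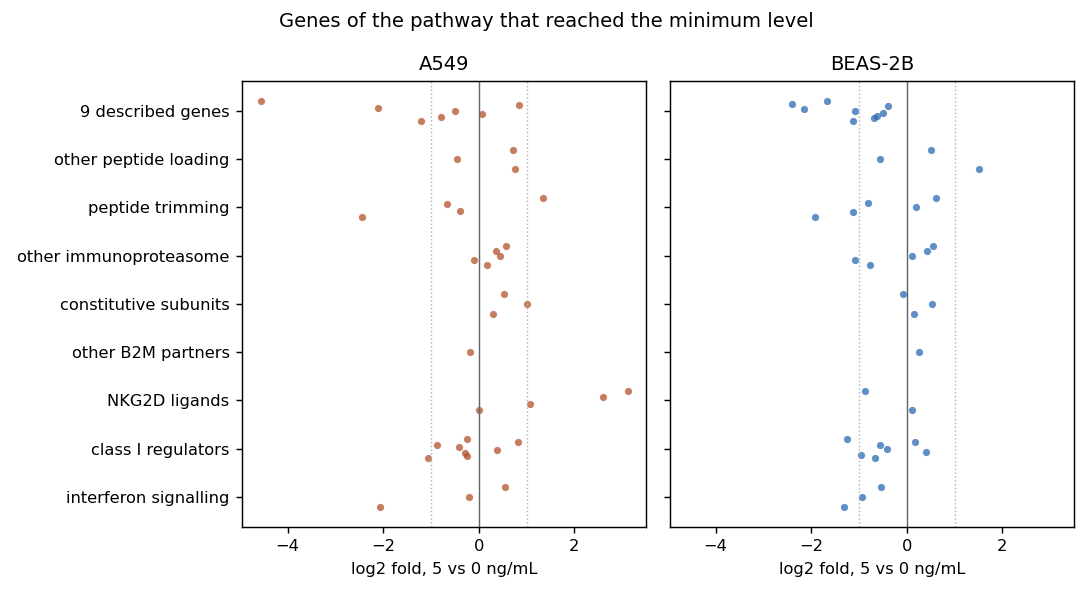
Log2 fold change at 5 against 0 ng/mL TGF-β1 of the genes in each list that reached the minimum level, in A549 (left) and BEAS-2B (right), each point a gene measured in 1 library per condition. Dotted lines mark the 2-fold limit, and the first row holds 7 of the 9 genes in A549 and all 9 in BEAS-2B. The lowest point in A549 cells is PSMB8 at -4.57.

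Interferon signalling genes, whose products act upstream of the class I promoters, included 1 gene called lower in both lines at 5 ng/mL. IFNGR2, a chain of the interferon-γ receptor, was called lower in A549 at both doses and in BEAS-2B at 5 ng/mL, with ratios at 5 ng/mL of 0.236 (0.172 to 0.319) and 0.3998 (0.329 to 0.483). IFNGR2 was the 1 gene called lower among the 7 of this list at 5 ng/mL in either line, 0 were called higher, and 3 reached the level in each line, beside 17.1% of all genes called lower in A549 and 11.6% in BEAS-2B. IFNGR1, the other receptor chain, stayed below the level, with 78, 12 and 1 counts in A549 and 19, 6 and 1 counts in BEAS-2B. At 5 ng/mL 4 of the 7 intervals lay below 1 in each line, and 1 above it in A549 and 0 in BEAS-2B. JAK1 was the 1 gene called in BEAS-2B at 1 ng/mL, lower with 717 and 332 counts, beside 9.13% of all genes. IFNG and IFNB1, the genes of interferon-γ and interferon-β, both picked after their values were seen, were at 0 in all 6 libraries.

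Among 12 regulators of class I transcription, NLRC5 stayed below the minimum level, with 9, 32 and 36 counts in A549 and 67, 69 and 84 counts in BEAS-2B. IRF1, a transcription factor that binds the ISRE, was not called in any treatment comparison, with ratios at 5 ng/mL of 0.843 (0.707 to 1.01) in A549 and 0.630 (0.554 to 0.715) in BEAS-2B. RFX5, a subunit of the factor that binds the class I module, was called lower in A549 cells at 5 ng/mL (0.474, 0.363 to 0.615). NFKB1, a κB-binding subunit, was called lower in BEAS-2B cells at 5 ng/mL (0.417, 0.337 to 0.512). RFX5 was thus 1 of 8 regulators at the level in A549, beside 17.1% of all genes called lower. NFKB1 was 1 of 7 in BEAS-2B, beside 11.6%, and 0 regulators were called higher at 5 ng/mL in either line. At 1 ng/mL 0 regulators were called in A549. In BEAS-2B IRF2 was the 1 called of 7, lower with 230 and 107 counts, beside 9.13% of all genes.

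The ligands of the natural killer receptor NKG2D, which are distant relatives of the class I heavy chains, included 3 genes called higher in A549 at 5 ng/mL. Of 8 genes 4 reached the level there, with 3 called higher and 0 lower, beside 16.1% and 17.1% of all genes. At 1 ng/mL MICB was the 1 gene called of 2 that reached the level, beside 11.0% of all genes called higher. MICA, the fourth that reached the level at 5 ng/mL, had a ratio there of 1.00 (0.775 to 1.29). RAET1G had 17, 182 and 198 counts and a ratio of 9.12 (5.55 to 16.0), RAET1E had 34, 169 and 269 counts and a ratio of 6.20 (4.33 to 9.13), and MICB had 73, 267 and 198 counts and a ratio of 2.12 (1.62 to 2.82). Treated BEAS-2B had 0 of these 8 genes called, but only 2 reached the level at each dose. Over all genes in BEAS-2B at 5 ng/mL, 7.32% were called higher and 11.6% lower. The MICB ratio in BEAS-2B at 5 ng/mL was 0.543 (0.466 to 0.630). Among 10 class II genes, which serve professional antigen-presenting cells, 0 reached the minimum level, and HLA-DRA was at 0 in all 6 libraries.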

How the data were processed

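The 6 poly(A) transcript libraries were made by the authors from total RNA with the QuantSeq 3′ kit, which yields reads near the 3′ end of a transcript. The submitters' processing notes name Bowtie2, bedtools and the build hg19, without versions, and ExDEGA was used by the authors for quantification. The deposited values are raw counts per gene symbol, as whole numbers, in 25737 rows. The strand setting and the handling of multiply matching reads are not given in the sources used here. Intervals cover counting error only, and not the variation among cultures. Reads carried no molecular identifiers, so that copies of the same molecule could not be told apart. The intervals treat each read as independent and may therefore be too narrow even for counting error. Statements of a difference larger than counting error rest on these intervals.

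Rows of a symbol were summed. Counts were scaled with TMM factors (edgeR 4.0.16, R 4.3.3) over the 6 libraries, and the log2 level is log2(scaled count + 1). Ratios carry exact 95% Clopper-Pearson intervals, and the difference of 2 log2 ratios a normal interval from the counts. The remaining steps ran in Python 3.11.15 (scipy 1.17.1, numpy 2.4.6, pandas 2.3.3), and matplotlib 3.10.9 drew the figures. The call limits, a fold of 2 and a log2 level of 7, are those of the study, applied here to TMM-scaled counts. The members and lists were chosen with earlier results of these data known. From the lists, HLA-F, IFNGR1, JAK1 and IRF2 were named after their values were seen. Values are given for the 9 genes, for genes of the pathway lists called at 5 ng/mL, for PSMB5, PSMB6, PSMB7, PSMB10, NLRC5 and IRF1, and for the 5 genes of most similar pattern. Alternatives were 13 set out at the start, DESeq2 1.42.0 size factors among them, and 1 added after seeing the data, the removal of the trend of fold change over transcript GC content in 20 bins. The steps were tested on simulated data. The promoter windows come from GRCh38.p14 and gene overlaps from GENCODE v29, whereas the counts were made on hg19, and no position was carried over between builds. A few genes of the lists are not reported here and were left out of their counts and medians. The other experiments of the study were not analysed here.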

Additional observations from a re-analysis of the deposited data

Results flagged for a closer look

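TAPBP moved in opposite directions in the lines at both doses. The ratio of treated to untreated was 2.128 at 1 ng/mL and 1.798 at 5 ng/mL in A549 cells, and 0.5557 and 0.7659 in BEAS-2B cells. With 1 library per condition the difference between the lines was not tested against the spread between cultures.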

How the results depend on the processing

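No paired analysis was possible because the labels give no replicate numbers that conditions share. A model with the lines as blocks was not run, and leaving out a library would remove its condition. Of 1164 recomputed values, 1114 stayed close, 50 moved further and 0 called values changed sign, where close means a count of calls within 1.5 times, a log2 fold change within its own 95% counting interval and a median within the medians of the members' bounds. Whether a single gene kept its call is no part of that measure. Counts of called members moved as follows. With total counts as the scaling, 0 were called higher in A549 at 1 ng/mL (1 with TMM) and the median log2 fold change in BEAS-2B at 5 ng/mL was -1.216 (-1.088 with TMM), and the TAPBP call was also lost, leaving 0 higher, with the GC trend removed. With a level of 7 required in both libraries, which leaves out genes that fell below it, 0, 1 and 3 were called lower in A549 at 1 and 5 ng/mL and BEAS-2B at 5 ng/mL (2, 3 and 5 before). With log2(CPM + 1) as the level, 0 and 0 were called lower in A549 and 1 and 2 in BEAS-2B at 1 and 5 ng/mL, since fewer genes reach 7 on that scale. A fold of 1.5 gave 1 higher in A549 at 5 ng/mL, 6 lower in BEAS-2B at 1 ng/mL and 1 lower in A549 between the doses. A fold of 3 gave 0 higher in A549 at 1 ng/mL and 3 lower in BEAS-2B at 5 ng/mL. Thinned libraries gave 1 lower in A549 at 1 ng/mL. HLA-B in A549 at 5 ng/mL and PSMB9 in BEAS-2B lost their calls with log2(CPM + 1). With the GC trend removed, HLA-C in A549 gained a lower call at both doses, and its log2 fold change at 5 ng/mL was -1.53. It was also called lower there at 5 ng/mL with total counts as the scaling. Where no construction is named, the cause was not tested.

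Total counts moved the median of all genes by -0.19 and -0.25 in A549 and by -0.14 and -0.15 in BEAS-2B at 1 and 5 ng/mL, log2(CPM + 1) moved it by 0.20 and the GC removal by -0.11 in A549 at 5 ng/mL. Differences are limited by depth for TAP1, PSMB8 and PSMB9, whose A549 libraries held 6 to 156 counts.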
